A study of Hydra vulgaris with 12 samples.

Results

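The first measured step of head regeneration in Hydra is the change from tissue taken at bisection (0 h) to tissue taken 2 h later. It was read from 4 of the 12 libraries of a time course, 2 at 0 h and 2 at 2 h. Of 17353 transcripts in the table, 14283 were tested: those with an RPKM (a read number divided by transcript length and library size) of at least 1 in at least 2 of the 12 libraries. At the edge of this rule, the second-highest value of a transcript was 1.001 RPKM for the lowest one tested and 0.9998 RPKM for the highest one left out. The 3070 transcripts left out reached that level in 1 library (663) or in none (2407).

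All groups were Hydra magnipapillata of the 105 strain, listed by GEO as Hydra vulgaris, and the groups differed only in the time kept after the cut. Each library came from a pool of 50 to 100 asexual polyps with a young bud, starved for 1 day. Every animal was cut below the uppermost of 4 trunk regions, and the middle pair of regions was taken for poly(A) RNA at 0, 2, 4, 6, 12 or 48 h. No uncut animals kept for 2 h are among the samples, so the time kept and the cut cannot be told apart.

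Hydra is a freshwater cnidarian polyp whose trunk is a tube of an outer and an inner epithelial layer. Interstitial stem cells lie between the epithelial cells and give rise to nerve cells, nematocytes, gland cells and germ cells. After the head is removed, the upper end of the trunk rebuilds a head organizer, in which Wnt signalling through beta-catenin acts, largely by re-patterning the tissue that is left. The whole piece of trunk was sequenced here, so cells at the wound are only a share of each sample, and fewer cells of a type cannot be told apart from less RNA per cell.

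Of the 17353 identifiers, 1 was paired with a gene name, that of Wnt3, and it was also the 1 identifier found in the RefSeq gene list of a newer Hydra assembly. The marker genes of Hydra cell types and the signalling genes listed for this comparison could therefore not be looked up. The tissue named in the labels was not checked against markers, and transcripts are given by their RefSeq identifiers. An XM prefix marks a predicted mRNA and an XR prefix a predicted non-coding RNA. What the other transcripts encode is not stated in the sources used here.

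The 0 h libraries differed from each other more than the 2 h libraries did. The SD of the difference between replicates on the log2(RPKM + 1) scale was 0.732 at 0 h and 0.481 at 2 h. In 0 h replicate 2, 937 tested transcripts lay below 0.1 RPKM, against 236 in 0 h replicate 1, 240 in 2 h replicate 1 and 281 in 2 h replicate 2. In 528 cases a transcript had 1 RPKM or more in 0 h replicate 1 and less than 0.1 RPKM in its partner, and the reverse held in 47. At 2 h the same counts were 84 and 57. Of the transcripts given by value below, XM_002162714.2 and XM_004213329.1 alone were called when that library was left out.

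From 0 h to 2 h, few transcripts passed the test, and those that did not are not thereby shown to be unchanged. In a limma fit to log2(RPKM + 1), 19 transcripts rose (0.133% of those tested) and 16 fell (0.112%), 35 in all (0.245%). Called here means a Benjamini-Hochberg adjusted p below 0.05 and a log2 fold change of at least 1 in size. Before adjustment, 2293 transcripts (16.1%) had a limma p below 0.05 in this fit. The rises spanned log2 fold changes from 1.02 to 5.54 with a median of 1.87, and the falls spanned 1.01 to 3.95 in size with a median of 1.70. In each of the 35 transcripts both 2 h libraries lay on one side of both 0 h libraries. Such separation was common: both 2 h libraries lay above both 0 h libraries in 17.9% of all tested transcripts and below them in 36.0%. With libraries brought to a common median ratio, called median-ratio scaling here, these shares were 27.2% and 25.3%.

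**Figure D1:**
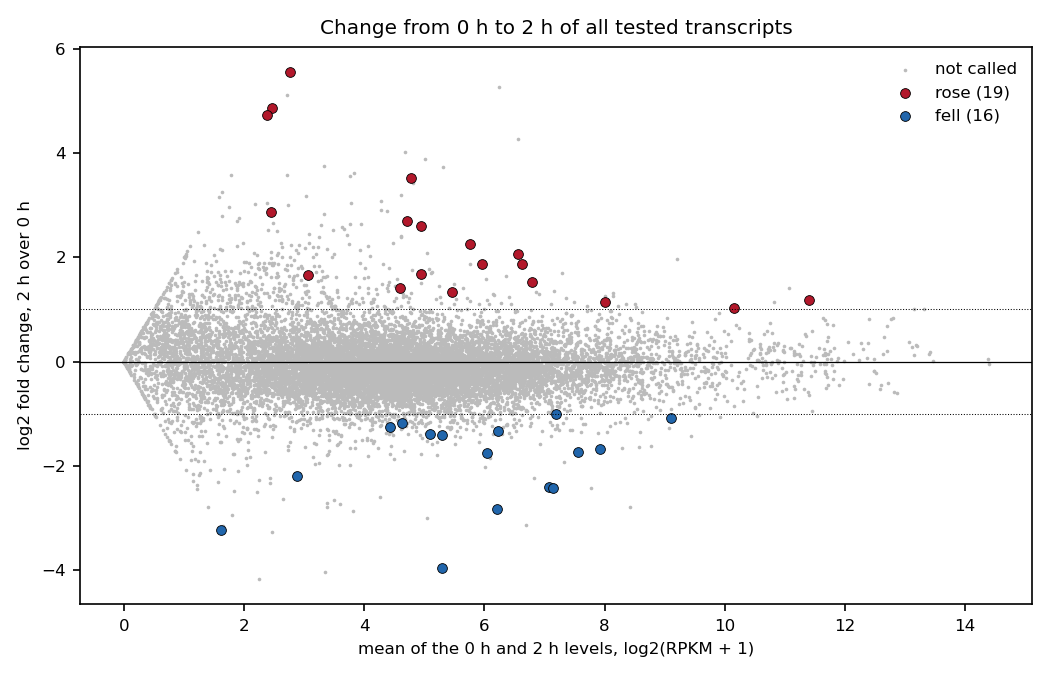
Log2 fold change from 0 h to 2 h (vertical axis, on the log2(RPKM + 1) scale) against the mean of the levels at both times (horizontal axis) for 14283 transcripts, with dotted lines at a log2 fold change of 1 in either direction. The 19 transcripts that rose (red) and the 16 that fell (blue) lie among 994 grey transcripts with a change of at least 1 in size that did not pass the test.

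Over all tested transcripts the median log2 change was -0.11, and 0.014 after median-ratio scaling. That scaling gave 17 rises and 5 falls, all among the 35, and moved the share of rises among the calls from 54.3% to 77.3%. The 5 falls that passed under it, named after their values were seen, were XM_002167556.2, XM_004212923.1, XM_004206511.1, XM_004205564.1 and XM_004212754.1. The 11 others stayed lower at 2 h, with adjusted p from 0.0594 to 0.0929.

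The calls rested on few libraries. Without 0 h replicate 2 the limma fit called 2 rises and 0 falls (1321 transcripts had an unadjusted p below 0.05), and both rises were among the 19, so the other 33 calls were not made in that fit. It called 107 rises and 29 falls without 0 h replicate 1, 3 and 2 without 2 h replicate 1, and 4 and 15 without 2 h replicate 2. Leaving out either 4 h library gave 4 rises and 5 falls, either 6 h library 2 and 3, and either 12 h library 10 and 9. There were 44 rises and 97 falls without 48 h replicate 1, and 43 and 96 without 48 h replicate 2. In these fits a lone library is assumed to vary like those of the other times. A limma fit to the 4 libraries alone called 0 transcripts, with a lowest adjusted p of 0.114 and 2747 transcripts at an unadjusted p below 0.05. With 2 libraries against 2 an exact permutation test of 1 transcript cannot give a two-sided p below 0.333.

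**Figure D2:**
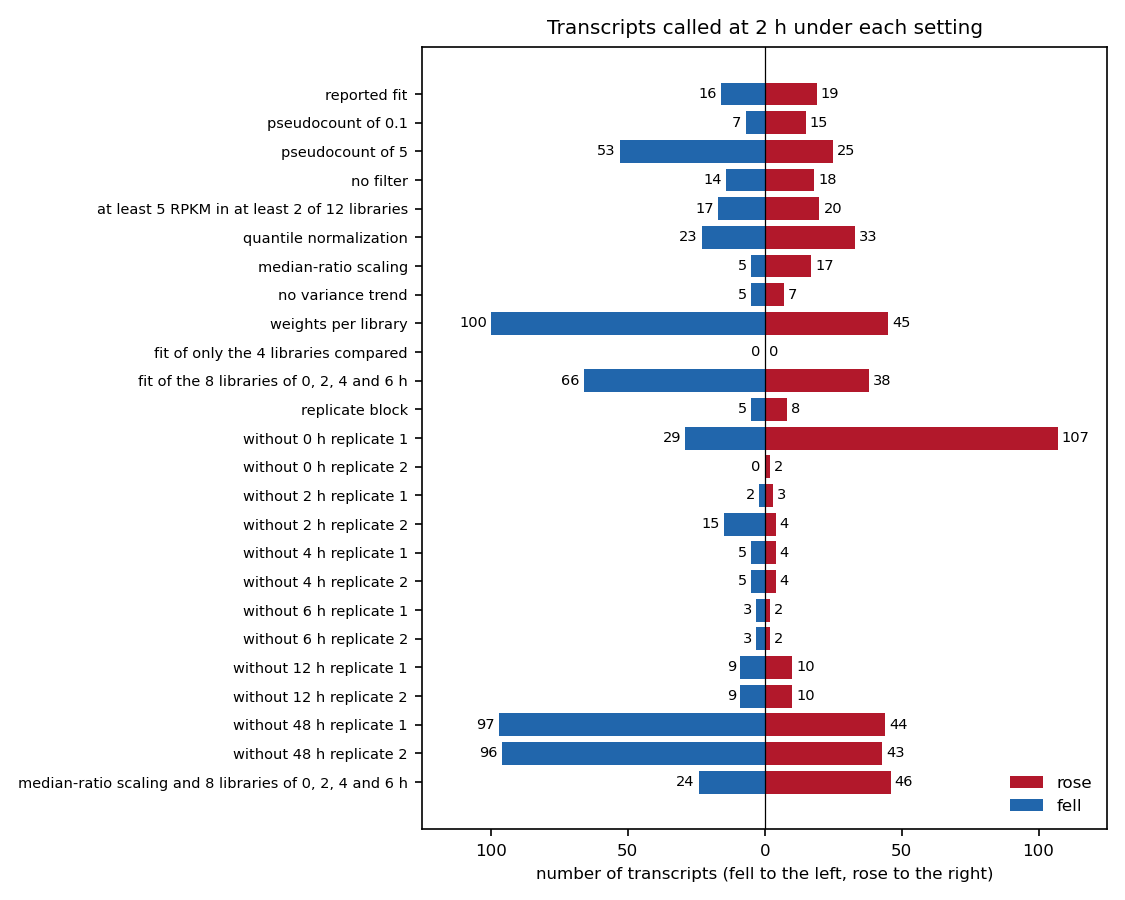
Number of transcripts that rose (red, to the right) and fell (blue, to the left) at 2 h in the reported fit and under 24 other settings, with the counts printed at the bars. The bars run from 0 and 0 in the fit of the 4 libraries alone to 107 rises without 0 h replicate 1 and 100 falls with weights per library.

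Among transcripts with at least 10 RPKM at both times, XM_002162714.2 rose with the smallest p. It stood at 43.6 and 46.6 RPKM at 0 h and at 195 and 190 RPKM at 2 h. The replicates of each time lay within a few RPKM of each other, and the groups were far apart. The mean went from 45.1 ± 2.15 to 193 ± 3.51 RPKM (SD, n = 2), 4.28 times the 0 h level. The log2 change was 2.07 ± 0.14 (SE; limma adjusted p = 0.00124). It was one of the 2 transcripts called without 0 h replicate 2, and over the 24 alternatives it lost its call in 1, the fit of the 4 libraries alone (adjusted p = 0.151, range over all alternatives 0.00102 to 0.151). Later levels were higher still, with 482 and 608 RPKM after 4 h, 436 and 498 RPKM after 6 h, 722 and 735 RPKM after 12 h, and 589 and 536 RPKM after 48 h. All 8 later libraries lay above both 2 h libraries.

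XM_002158301.2, the other graded rise singled out by its p-value, stood at 74.8 and 55.4 RPKM at 0 h and at 169 and 205 RPKM at 2 h. The groups did not overlap, and the replicates differed more than those of XM_002162714.2. The log2 change was 1.52 ± 0.18 (SE; limma adjusted p = 0.0237), a ratio of means of 2.88. The call was lost in 9 of the 24 alternatives, among them the fit without 0 h replicate 2 (adjusted p = 0.210, the highest of a range from 0.00802). Later levels ran from 293 to 376 RPKM at 4 to 12 h and were 179 and 183 RPKM at 48 h. It thus stood at 48 h in the range of its 2 h libraries.

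**Figure D3:**
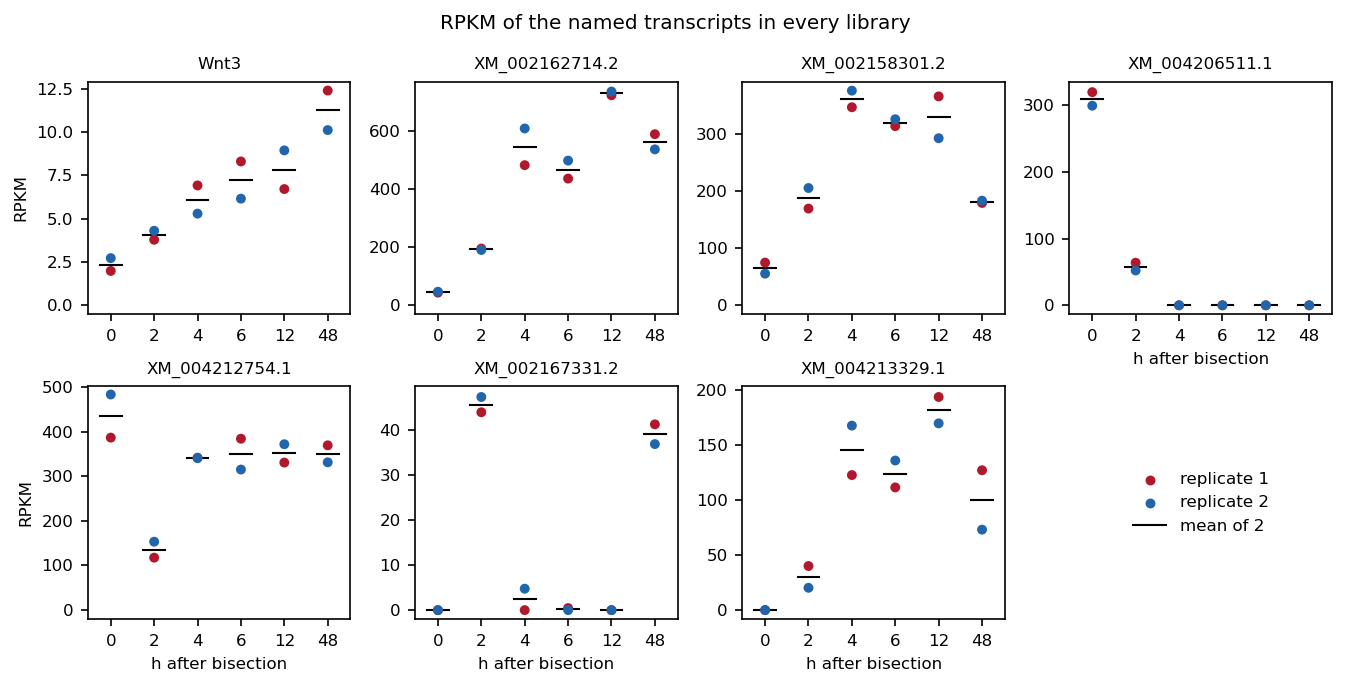
RPKM (vertical axis, linear, a scale per panel) of Wnt3 and 6 transcripts in every library against hours after bisection (horizontal axis, times evenly spaced), with replicate 1 in red, replicate 2 in blue and the mean of 2 as a line. XM_002162714.2, XM_002158301.2, XM_004213329.1 and XM_002167331.2 rose at 2 h, XM_004206511.1 and XM_004212754.1 fell, and Wnt3 did not pass the test.

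Of the graded falls, XM_004206511.1 had the smallest p. It stood at 320 and 299 RPKM at 0 h and at 63.9 and 52.3 RPKM at 2 h, so its 2 h mean was 0.188 of that at 0 h. The log2 change was -2.40 ± 0.23 (SE; limma adjusted p = 0.00855). The 2 h level was an intermediate one, since the transcript lay below 0.001 RPKM in 7 of the 8 later libraries and at 0.00913 RPKM in 48 h replicate 2. These later values, down to 4.04e-18 RPKM in 4 h replicate 1, include some too small for a whole read. How reads were assigned is not given. With 1 RPKM added, the 8 later libraries hardly differ within a time and so bring little spread into the fit. The SE of XM_004206511.1 may therefore be too small, and its first place by p among the graded falls is to be read with that limit. Its call did not hold without 0 h replicate 2 (adjusted p = 0.168), 2 h replicate 1 (0.0829) or 2 h replicate 2 (0.0634), with a pseudocount of 0.1 (0.0845) and in the fit of 4 libraries (0.151), over a range from 5.45e-04.

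XM_004212754.1 took another course. It stood at 386 and 483 RPKM at 0 h and fell to 118 and 153 RPKM at 2 h; the log2 change was -1.68 ± 0.18 (SE; limma adjusted p = 0.0153). It was at 341 and 340 RPKM at 4 h, and every library from 4 h on lay between 315 and 384 RPKM. The 2 h libraries were thus the lowest pair of the series, with all later libraries between them and the 0 h libraries. The call was lost in 3 of the 24 alternatives: without 0 h replicate 2 (adjusted p = 0.208), without 2 h replicate 1 (0.0829) and in the fit of 4 libraries (0.151), over a range from 0.00933.

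Some transcripts went from listed values near 0 to a clear level. How reads were assigned to similar transcripts is not given, so such near-0 values are uncertain. The 0 h replicate 2 value of XM_004213329.1, 8.1e-15 RPKM, is too small for a whole read. XM_004213329.1 was at 0.0481 RPKM and below 0.001 RPKM at 0 h and at 40.1 and 20.3 RPKM at 2 h; the log2 change was 4.85 ± 0.34 (SE; limma adjusted p = 0.00124). It was the second transcript called without 0 h replicate 2, and it lost its call only in the fit of 4 libraries (adjusted p = 0.151) among the 24 alternatives (range from 1.68e-04). At 4 h it stood at 123 and 168 RPKM. Its log2 change was 7.88 with a pseudocount of 0.1 and 2.75 with a pseudocount of 5, so its size was set by the value added to a 0 h level near 0 and is no bound.

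XM_002167331.2 had less than 0.001 RPKM in each 0 h library and stood at 44.0 and 47.4 RPKM at 2 h; the log2 change was 5.54 ± 0.65 (SE; limma adjusted p = 0.0237). It was not sustained: values at 4 h were below 0.001 and 4.77 RPKM, and both 12 h libraries were below 0.001 RPKM. At 48 h it was back at 41.3 and 36.9 RPKM. Leaving out 0 h replicate 2 ended its call (adjusted p = 0.213), as did 6 other alternatives, over a range from 8.22e-04. Its log2 change too followed the pseudocount, with 8.84 at 0.1 and 3.34 at 5. Since replicates near 0 RPKM agree almost by construction on this scale, the SE of both transcripts may understate their spread. Near-0 values of XM_002167331.2, down to 1.6e-10 RPKM in 12 h replicate 2, are also too small for a whole read. Whether reads were shared with similar transcripts was not tested.

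Another transcript of this kind, XM_002168509.2, is named after its values were seen. It was at 0.0111 and 0.00519 RPKM at 0 h and at 14.8 and 44.2 RPKM at 2 h; the log2 change was 4.73 ± 0.57 (SE; limma adjusted p = 0.0241). It kept its call in 16 of the 23 alternatives set out with the comparison and lost it without 0 h replicate 2 (adjusted p = 0.213). These 3 transcripts were the rises with a 0 h mean under 1 RPKM. No fall met the matching rule of 10 RPKM or more at 0 h and under 1 RPKM at 2 h. XM_004212923.1, also named after its values were seen, came nearest, with 6.38 and 10.8 RPKM at 0 h and less than 0.001 RPKM in each 2 h library; the log2 change was -3.22 ± 0.35 (SE; limma adjusted p = 0.0173). It reached 1 RPKM in the 0 h libraries alone, so it passed the filter only through the group where it was high. Its SE rests in large part on libraries near 0, and it kept its call in 15 of 23 alternatives, not among them the fit without 0 h replicate 2 (adjusted p = 0.191).

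Over all tested transcripts, 20 had less than 0.1 RPKM in each 0 h library and 1 RPKM or more in each 2 h library, 0.14% of those tested. The reverse held for 6 transcripts, or 0.042%. Most were weak: the median level at 2 h of the 20 was 3.18 RPKM, and 3 of them passed the test. Between replicates of 1 time the same gap was seen in 528 and 47 transcripts at 0 h and 84 and 57 at 2 h. That rule is looser, with 1 library on each side. The 528 were low in 0 h replicate 2, so no direction is read from the 20 and the 6. Of the 20, 3 were at 1 RPKM or more in both 4 h libraries and 6 were below 0.1 RPKM in both. Of the 6 that went the other way, 5 were below 0.1 RPKM in both 48 h libraries. By this rule each of these transcripts met the filter through the pair of libraries where it was high. Some, such as XM_004212949.1 (2 h) and XM_004209440.1 (0 h), reached 1 RPKM in no other library. Low values at other times are thus no support for a switch.

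The 35 called transcripts were mostly well expressed. Among tested transcripts with a mean over all libraries under 2 RPKM, 1 of 1430 was called, and 1 of 3357 at 2 to 10 RPKM. The calls numbered 10 of 6010 at 10 to 50 RPKM, 16 of 2455 at 50 to 200 RPKM, and 7 of 1031 at 200 RPKM or more. The median SE of the log2 fold change in these classes was 0.54, 0.39, 0.26, 0.21 and 0.19, so a given fold change was harder to call at low levels. Of the 19 rises, 12 had a mean of at least 10 RPKM at both times, and so had 13 of the 16 falls.

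In share of total RPKM both sets were small. The rises together held 0.203% and 0.241% of the 0 h libraries, and 0.533% and 0.535% of the 2 h libraries. For the falls the shares were 0.235% and 0.229% at first, then 0.0736% and 0.0755%. The most abundant rise, XM_002159691.2, named after its values were seen, went from 1572 and 2046 RPKM at 0 h to 4099 and 4041 RPKM at 2 h; the log2 change was 1.18 ± 0.19 (SE; limma adjusted p = 0.0496). It stood at 8469 and 9744 RPKM at 6 h and at 2243 and 3047 RPKM at 48 h. Its call was kept in 7 of 23 alternatives and lost, among others, with median-ratio scaling (adjusted p = 0.0594, log2 fold change 1.32) and without 0 h replicate 2 (0.213).

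After 2 h the rises mostly stayed up. At 4 h, 10 of the 19 had a mean at or beyond their 2 h mean on the log2 scale, 7 lay between but nearer to 2 h, and 2 lay nearer to 0 h. At 48 h these counts were 10, 6 and 3. In 15 of the 19, all 8 later libraries lay above both 0 h libraries, against 5.84% of all tested transcripts. The highest mean was at 2 h in 6 rises, at 4 h, 12 h and 48 h in 4 each, and at 6 h in 1. These counts carry no test, since the 0 h and 2 h libraries that chose the transcripts are also the reference for their later course.

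Of the 16 falls, 6 had at 4 h a mean at or beyond the 2 h level, 4 lay nearer to 2 h and 6 nearer to 0 h. At 48 h the counts were 8, 5 and 3. In 12 of the 16, all 8 later libraries lay below both 0 h libraries, against 28.6% of all tested transcripts. The lowest mean was at 2 h in 6 falls, at 48 h in 5, at 12 h in 3 and at 6 h in 2. As for the rises, these counts carry no test, since the libraries that chose the falls are also their reference. They were read without scaling, where the median log2 change of all tested transcripts from 0 h was -0.28 at 4 h and -0.39 at 48 h.

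**Figure D4:**
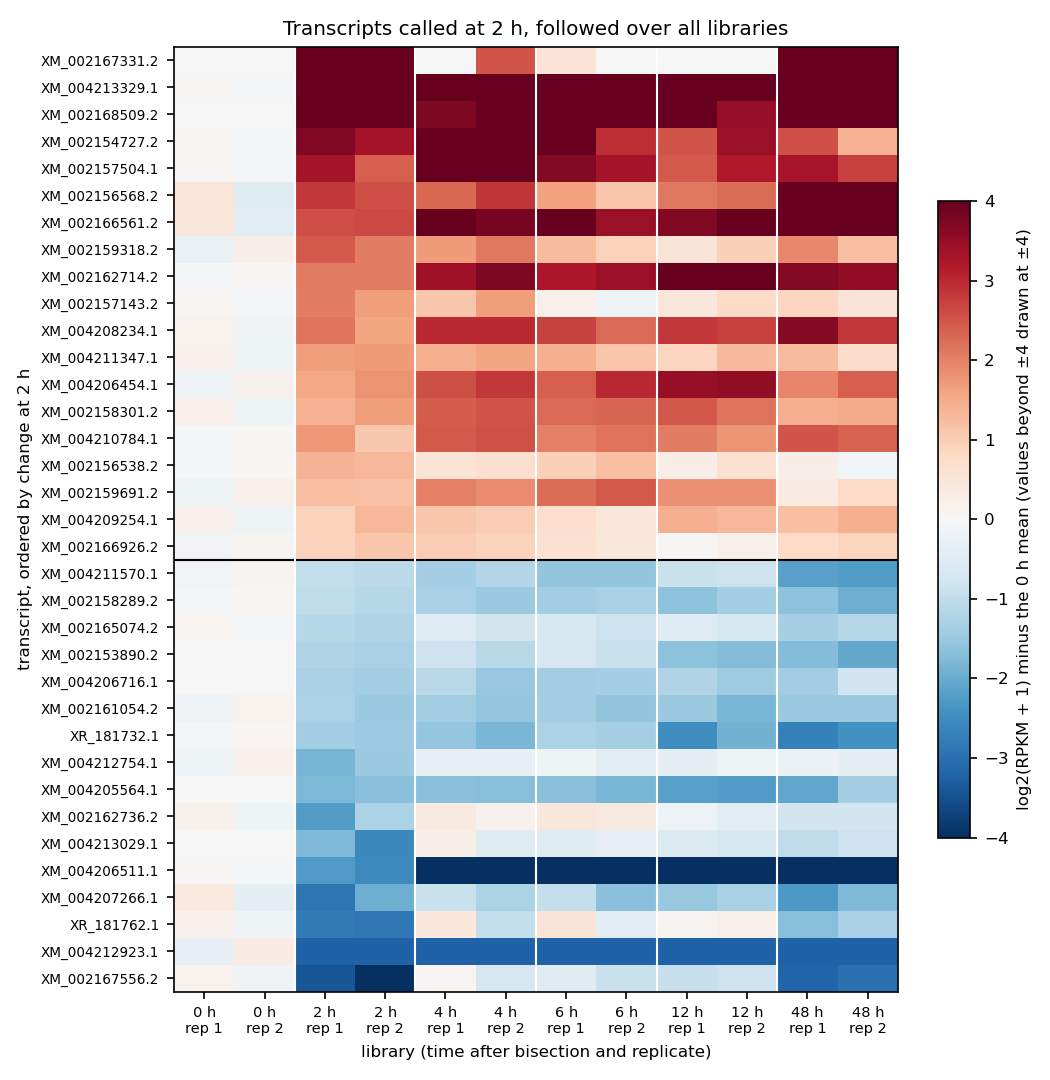
Log2(RPKM + 1) minus the 0 h mean (colour, red higher and blue lower, values beyond 4 in size drawn at 4) of the 35 called transcripts (rows, rises above the black line) in each of the 12 libraries (columns). Most rises stay red from 2 h to 48 h, while 6 falls, such as XM_004212754.1 and XM_002167556.2, are nearer to white than to their 2 h colour at 4 h.

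The deepest of the brief dips, named after its values were seen, was that of XM_002167556.2. It stood at 170 and 138 RPKM at 0 h, at 13.5 and 5.86 RPKM at 2 h and at 162 and 95.3 RPKM at 4 h; the log2 change at 2 h was -3.95 ± 0.36 (SE; limma adjusted p = 0.00678). At 48 h it was low again, at 15.8 and 18.7 RPKM. It kept its call in all but 2 of the 23 alternatives set out with the comparison: the fit of 4 libraries (adjusted p = 0.151) and the fit without 0 h replicate 2 (0.0943). XM_002162736.2, chosen in the same way, went from 135 and 106 RPKM to 24.8 and 49.1 RPKM at 2 h and stood at 155 and 136 RPKM at 4 h; the log2 change at 2 h was -1.75 ± 0.27 (SE; limma adjusted p = 0.0459). Both 4 h libraries of that transcript lay above both 0 h libraries. The call of XM_002162736.2 was kept in 7 of 23 alternatives and lost, among others, with median-ratio scaling and without 0 h replicate 2 (adjusted p = 0.213).

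A lasting drop looked different. XM_004205564.1, named because it passed under median-ratio scaling, stood at 347 and 336 RPKM at 0 h and at 98.0 and 107 RPKM at 2 h; the log2 change was -1.73 ± 0.21 (SE; limma adjusted p = 0.0241). Every later library lay between 71.8 and 134 RPKM. It had reached its later range by 2 h, and no later library came near the 0 h level. Of 23 alternatives 14 kept its call, and the fit without 0 h replicate 2 did not (adjusted p = 0.213).

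Predicted non-coding RNAs gave 2 of the 16 falls and none of the 19 rises, 0.606% of the 330 tested, against 0.245% of all transcripts. XR_181762.1 stood at 219 and 175.9 RPKM at 0 h, at 27.3 and 26.3 RPKM at 2 h and at 264 and 98.7 RPKM at 4 h; the log2 change at 2 h was -2.83 ± 0.44 (SE; limma adjusted p = 0.0452). XR_181732.1 stood at 60.2 and 66.3 RPKM at 0 h and at 24.0 and 22.3 RPKM at 2 h; the log2 change was -1.41 ± 0.22 (SE; limma adjusted p = 0.0477), and no later library of it exceeded 25.8 RPKM. At 4 h XR_181762.1 lay above both 0 h libraries in replicate 1 and below both in replicate 2. It stood at 59.4 and 80.0 RPKM at 48 h, below both 0 h libraries. XR_181732.1 stayed low. Neither was called with median-ratio scaling or without 0 h replicate 2 (adjusted p = 0.250 and 0.286), and they kept their calls in 8 and 9 of 23 alternatives.

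Large changes that did not pass were far more numerous than the calls. A log2 fold change of at least 1 in size was measured in 1029 transcripts, 544 higher (3.81%) and 485 lower (3.40%). Of the 1029, 845 did not overlap between the times. Over all tested transcripts 17.9% lay higher and 36.0% lower with no overlap. A set picked for a large difference separates more often by its choice, so the 845 are no added support. Of the 544, 189 (34.7%) were at 1 RPKM or more in 0 h replicate 1 and below 0.1 RPKM in 0 h replicate 2, against 3.70% of all tested transcripts and 1.86% of the 485. None of the 35 called transcripts had this gap. A gap between replicates raises the SE, so this absence was favoured by the test and does not clear the calls. The part of that library in the 544 was not tested further.

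The one of these 189 with the largest log2 change, named after its values were seen, was XM_002157713.2. It was at 148 RPKM in 0 h replicate 1, listed at 0 in 0 h replicate 2, and at 412 and 529 RPKM at 2 h; the log2 change was 5.26 ± 1.71 (SE; limma adjusted p = 0.185). From 4 h on it lay between 233 and 393 RPKM. Its 0 h level was thus set by 1 library.

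Another 9 transcripts had an adjusted p below 0.05 but a log2 fold change under 1 in size, and all 9 were lower at 2 h, between -0.97 and -0.85. With an adjusted p from 0.05 to 0.1 there were 52 transcripts higher and 187 lower. Without the minimum fold change the limma counts were therefore 19 higher and 25 lower, 0.308% of those tested. With median-ratio scaling the same counts were 17 higher and 5 lower. All of these were also called in the reported fit, so none of the 9 passed with that scaling. The lean to falls at an adjusted p below 0.05 thus depended on the scaling. The median log2 change of all tested transcripts moved as well, from -0.11 to 0.014.

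Wnt3, a secreted Wnt ligand of the head organizer, was at 1.98 and 2.72 RPKM at 0 h and at 3.78 and 4.30 RPKM at 2 h. The groups did not overlap, but the log2 change of 0.60 ± 0.27 (SE) did not pass the test (limma adjusted p = 0.325, and from 0.172 to 0.713 over 24 alternatives). Its 0 h level was low enough for the added 1 RPKM to compress the change.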

How the data were processed

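Strand-specific poly(A) RNA libraries of 12 pools, 2 at each of 6 times, were sequenced as 50 bp single ends, per the labels' protocols. The values are RPKM computed by the authors and deposited as 1 table. Bowtie 0.12.8 is named in the submitters' processing notes. Neither the transcript build nor the assignment of reads is given in the sources used here. Depth is unknown, so no counting interval is given, and values of near-identical transcripts are uncertain. No source says that pools of a time were collected on separate days, so p-values cover the spread between these libraries.

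RPKM were tested as log2(RPKM + 1), so a fold change understates that of weak transcripts. A linear model with 1 mean for each time was fitted over 12 libraries with limma 3.58.1 in R 4.3.3 (trended prior variance, 6 residual degrees of freedom, two-sided tests). SE are those of limma. The code was tested on simulated data.

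Named by rule are Wnt3 and the 2 rises and 2 falls with the smallest p at 10 RPKM or more at both times. The rule also gave the 2 largest rises from under 1 RPKM to at least 10 RPKM. All other transcripts given by identifier, the non-coding ones among them, were chosen after their values were seen. The comparison, lists and tests were chosen with earlier results of these data known. Alternatives were a pseudocount of 0.1 or 5, a filter at 5 RPKM or none, quantile normalization, median-ratio scaling, no variance trend, weights per library, fits of 4 and 8 libraries, a replicate block, each library left out, and no minimum fold change.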

Additional observations from a re-analysis of the deposited data

How the results depend on the processing

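The number of calls moved strongly with the settings and with the libraries in the fit. The 19 rises became 33 with quantile normalization, 7 with no variance trend, 45 with weights per library, 0 in the fit of only the 4 libraries compared, and 38 in the fit of the 8 libraries of 0, 2, 4 and 6 h. The 16 falls became 7 with a pseudocount of 0.1, 53 with a pseudocount of 5, 5 with median-ratio scaling, 5 with no variance trend, 100 with weights per library, 0 in the fit of 4 libraries, 66 in the fit of 8 libraries and 25 with no minimum fold change. Leaving out 1 library at a time gave 2 to 107 rises and 0 to 97 falls. All 35 calls remained with weights per library and without either 48 h library, 31 in the fit of 8 libraries and 19 with no filter; the causes were not tested. The 107 rises came without 0 h replicate 1, and in 49 of them 0 h replicate 2 was below 0.1 RPKM and 0 h replicate 1 at 1 RPKM or more. Median-ratio scaling together with the fit of 8 libraries, which was chosen after seeing the data, gave 46 rises and 24 falls. The median log2 fold change of -0.11 was -0.036 with no filter, -0.025 with quantile normalization and 0.014 with median-ratio scaling, in the fit of 12 or of 8 libraries. Over the libraries left out in turn it ran from -0.13 to -0.089. Replicate numbers did not meet the rule for pairing (r above 0.1 in every pair of times): the deviations of same-numbered 0 h and 2 h libraries from their means correlated with r of 0.0214, those of 4 h and 6 h with 0.234, and other pairs from -0.0976 to 0.0390. With the replicate block 8 rises and 5 falls passed, all 13 among the 35. Of 168 log2 fold changes of the 7 transcripts named by rule, 142 kept their direction and side of the threshold, 26 kept their direction and lost the call, and none changed sign. Without counts the depth of a library sets no stated limit here.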

Other observations

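The 20 most abundant transcripts at 2 h were ranked by their 2 h mean, so no direction is read from them. None of the 20 passed in the limma test. Ratios of the 2 h mean to the 0 h mean ran from 0.780 to 2.03, and 13 of the 20 were also among the 20 highest at 0 h. In 0 h replicates 1 and 2 the 20 highest took up 13.5% and 13.8% of the RPKM total, and in the 2 h replicates 16.1% and 16.0%.

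Predicted non-coding RNAs made up 6 of these 20, and 330 of the 14283 tested transcripts. XR_181677.1 and XR_181676.1 led at both times, with means of 20912 ± 1370 and 21878 ± 870 RPKM at 0 h and 21794 ± 3736 and 21339 ± 4098 RPKM at 2 h (SD, n = 2). XR_181933.1 went from 6498 ± 1379 to 12993 ± 1538 RPKM; the log2 change was 1.01 ± 0.23 (SE; limma adjusted p = 0.0923), and XM_004207626.1, a predicted mRNA, from 7191 ± 342 to 14561 ± 2083 RPKM; the log2 change was 1.01 ± 0.25 (SE; limma adjusted p = 0.113). All were named after their values were seen. Among the 330 non-coding RNAs tested, 31 were higher and 8 lower by a log2 fold change of at least 1. Over all 14283 tested transcripts the counts were 544 (3.81%) and 485 (3.40%). Of the 31, 14 were at 1 RPKM or more in 0 h replicate 1 and below 0.1 RPKM in 0 h replicate 2.

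Some of the largest log2 changes at 2 h did not pass the test. Of 9 transcripts with a log2 fold change of at least 4 in size, 3 were called. XM_004209514.1 stood at 102 and 15.5 RPKM at 0 h, at 0.832 and 2.498 RPKM at 2 h and at 256 and 124 RPKM at 4 h; the log2 change at 2 h was -4.02 ± 0.93 (SE; limma adjusted p = 0.0967). Its 2 h libraries were the lowest of all 12. XM_004209310.1 went from 10.3 and 34.6 RPKM to 0.00678 and 0.250 RPKM; the log2 change was -4.16 ± 0.78 (SE; limma adjusted p = 0.0620), and it was below 0.3 RPKM in 7 of the 8 later libraries. Outside the 0 h libraries, XM_004209310.1 reached 1 RPKM in 48 h replicate 1 alone (4.90 RPKM). It thus passed the filter through the group where it was high, and its low later values are no support for a lasting fall. Both transcripts were chosen after their values were seen.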
